A study of Mus musculus with 6 samples.

Results

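The 10 genes described here are read as identity genes of monocytes and macrophages, and they were chosen by name from a total of 18089 genes in the deposited table. They fall into 3 roles. *Adgre1*, *Csf1r*, *Cd68* and *Cx3cr1* are general macrophage genes, *Ly6c2* and *Ccr2* are genes of inflammatory monocytes, and *Lyve1*, *Folr2*, *Timd4* and *Cd163* are genes of macrophages that reside in tissue. RNA was measured in the ischemic gastrocnemius muscle of young adult male C57BL/6 mice 7 days after hindlimb ischemia (HLI), a surgery in which the left femoral artery is ligated and excised. One group of 3 mice was wild-type (WT). The other group of 3 mice carried a germline knockout of *Gpr174* on their single X chromosome (Gpr174-/Y), which is present in every cell and is not specific to any cell type. *Gpr174* encodes a lysophosphatidylserine receptor of lymphocytes. Every muscle in both groups was ischemic, so the values compare genotypes after ischemia and hold no uninjured baseline. The labels and methods give no sequencing batch, and each library is taken as 1 mouse from its label, so p-values measure the spread between these libraries.

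After muscle injury, CCR2-positive monocytes leave the blood, enter the tissue and mature into macrophages, losing LY6C as they do so. CSF1R is the receptor that keeps macrophages alive, and its ligands are CSF1 and IL-34. Muscle also holds resident macrophages that were present before injury, which take up debris and hemoglobin and carry receptors such as LYVE1, FOLR2, TIMD4 and CD163. The RNA came from whole muscle, and in whole muscle fewer cells of a type and less RNA per cell cannot be told apart.

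*Ly6c2* has a near copy, *Ly6c1*, which is abundant in the endothelium of blood vessels, and the start of both coding sequences is shown because reads of one can be assigned to the other. The sequences are the first 120 coding bases, from the start codon, of GENCODE M21 transcripts on GRCm38. The coding region of *Ly6c1* spans, on the minus strand, chr15:75045405-75048511 and that of *Ly6c2*, on the same strand, chr15:75108546-75111667. Capitals mark the bases that differ between the copies.
Ly6c1: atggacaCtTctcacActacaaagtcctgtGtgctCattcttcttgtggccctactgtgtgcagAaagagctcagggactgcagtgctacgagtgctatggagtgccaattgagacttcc
Ly6c2: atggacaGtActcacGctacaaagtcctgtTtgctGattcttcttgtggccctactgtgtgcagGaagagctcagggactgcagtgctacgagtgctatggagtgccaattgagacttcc
The whole coding sequences are 393 bases long and differ at 9 bases, an identity of 97.7%, and 6 of the 9 lie in the stretch shown. The longest run without a difference was 188 bases. Of the distinct stretches of 50 bases in the *Ly6c2* transcripts, 31.2% also occur in another gene, and 252 of these 255 stretches occur in *Ly6c1*. The same share was 1.91% for *Ccr2* and at most 0.269% for each of the other members. The value of *Ly6c2* is therefore uncertain.

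The promoters of *Cd68* and *Cd163* are shown as the gene with the highest fold change and one that was not called. They were taken from RefSeq on GRCm38.p6 and cover 250 bases before to 50 bases after the start of the gene. That of *Cd68* lies on the minus strand at chr11:69666121-69666420 and that of *Cd163* on the plus strand at chr6:124304401-124304700. Capitals mark GAGGAA and its reverse complement TTCCTC, the core of a sequence bound by PU.1, the protein of *Spi1*.
Cd68: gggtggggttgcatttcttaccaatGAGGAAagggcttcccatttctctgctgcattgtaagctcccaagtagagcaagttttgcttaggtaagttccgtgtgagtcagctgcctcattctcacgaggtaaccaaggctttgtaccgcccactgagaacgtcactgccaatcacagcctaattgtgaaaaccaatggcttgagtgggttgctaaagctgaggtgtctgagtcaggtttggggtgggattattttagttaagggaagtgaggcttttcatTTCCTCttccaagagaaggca
Cd163: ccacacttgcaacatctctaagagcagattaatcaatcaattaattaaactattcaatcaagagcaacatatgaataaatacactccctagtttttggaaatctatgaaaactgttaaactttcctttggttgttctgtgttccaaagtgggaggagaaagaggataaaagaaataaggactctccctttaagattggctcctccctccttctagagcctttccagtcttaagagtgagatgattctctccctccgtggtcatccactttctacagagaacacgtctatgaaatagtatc
The window of *Cd68* held 2 matches, 1 on each strand, and that of *Cd163* held 0. Of the 7 members with an entry, only *Cd68* and *Ly6c2* held a match, and the windows of *Ccr2*, *Cx3cr1*, *Folr2* and *Timd4* held 0. Of all 32851 RefSeq promoters of this length, 28.3% held at least 1 match on either strand. A match describes the letters of the window and not binding.

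The libraries held between 18417077 and 19394469 estimated reads, and 3 counts corresponded to 0.14 to 0.186 CPM (counts scaled to library size). CPM values were scaled by TMM, which sets the libraries on the level of most genes, and levels compared between genes are given as deposited TPM, which is scaled for transcript length. Log2 fold changes are Gpr174-/Y over WT, so that positive values are higher in Gpr174-/Y. Genes were called at an adjusted p of 0.05 in edgeR's quasi-likelihood test with Benjamini-Hochberg adjustment over the 14395 genes that passed the filter on low counts. Of these genes, 54.6% were called, 27.0% higher and 27.6% lower, and with scaling by total counts in place of TMM the shares were 50.7% and 14.0%. The median log2 fold change of all tested genes was 0.00 with TMM and was 0.27 greater with total counts. *Gpr174* had 8, 2 and 5 counts in the WT libraries and 1, 0 and 0 in the Gpr174-/Y libraries. Replicate 2 lay between replicates 1 and 3 in 86.0% of 3859 abundant genes in WT and in 76.5% in Gpr174-/Y. It did so in 9 of the 9 tested members in WT and in 8 of 9 in Gpr174-/Y. Gpr174-/Y replicates 1 and 2 were the most alike, with a chi-square of 1.85 per degree of freedom over genes, against 3.81 to 71.3 for the other pairs within a group. Whether the libraries are independent was not settled by the files, and the n of 3 and all p-values rest on it. With replicates 1 and 3 alone, a fit of 2 against 2 libraries, 0 of the members and 0 of all genes were called by edgeR, where 6 members and 5026 genes had an unadjusted p under 0.05.

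Of the 10 genes, 9 passed the filter. Among these 9, 6 were called higher in Gpr174-/Y and 0 were called lower, beside the 27.0% and 27.6% of all tested genes. The 6 were *Adgre1*, *Csf1r*, *Cd68*, *Cx3cr1*, *Ccr2* and *Folr2*, and in each of them the 3 Gpr174-/Y libraries lay above the 3 WT libraries on the TMM scale, as they did for 33.1% of tested genes. For 65.6% of tested genes the groups were apart in either direction, and for 32.4% the Gpr174-/Y libraries were below. On the TPM scale, which has no correction for the make-up of a library, the same 6 members were apart, with 64.0% of tested genes above and 11.5% below. *Ly6c2*, *Lyve1* and *Cd163* were not called and their groups overlapped. With all 6 libraries, none of these 3 had an unadjusted p under 0.05 in the main edgeR fit or in DESeq2's Wald test. *Cd68* and *Cx3cr1* also passed a log2 fold change of 1, as did 3.45% of tested genes in this direction. The plot of levels by library shows all 10 genes on 1 scale.

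**Figure D1:**
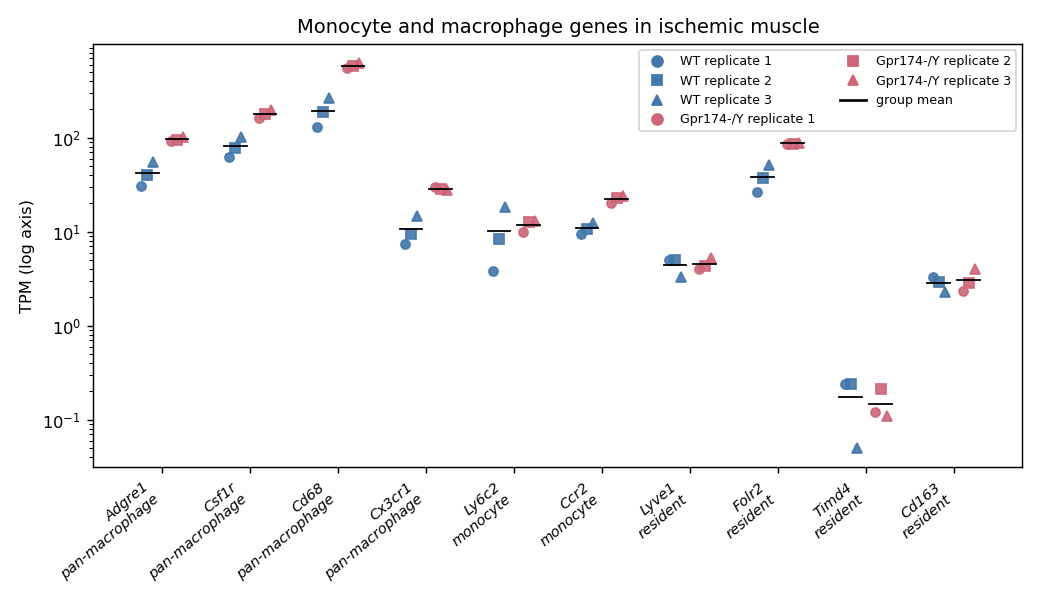
TPM of each of the 10 genes (vertical log axis) in every library, with WT in blue, Gpr174-/Y in red, a symbol for each replicate number and a line at the group mean. *Cd68*, *Csf1r*, *Adgre1*, *Folr2*, *Cx3cr1* and *Ccr2* show red points above all blue points, while the points of *Ly6c2*, *Lyve1*, *Cd163* and *Timd4* overlap.

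The general macrophage genes were higher in Gpr174-/Y in 4 of 4 cases, with log2 fold changes from 0.77 to 1.22. *Cd68*, a glycoprotein of lysosomes in phagocytes, had the highest fold change of the 10 genes. Its level was 94.6, 131 and 176 CPM in WT and 301, 314 and 320 CPM in Gpr174-/Y. The lowest Gpr174-/Y library thus lay well above the highest WT library. The log2 fold change was 1.22 (standard error 0.20, edgeR adjusted p = 0.00331), or 2.33-fold. *Cx3cr1*, the receptor for the chemokine fractalkine, had 15.6, 19.5 and 27.7 CPM in WT and 45.6, 42.8 and 40.3 CPM in Gpr174-/Y. Here the groups were also apart, and the log2 fold change was 1.03 (standard error 0.19, edgeR adjusted p = 0.00451).

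*Adgre1* encodes F4/80, the surface protein by which mouse macrophages are commonly stained. Its values were 58.9, 73.9 and 97.2 CPM in WT and 135, 136 and 139 CPM in Gpr174-/Y. The WT libraries spread 1.65-fold and the Gpr174-/Y libraries 1.03-fold, and the groups did not overlap. The log2 fold change was 0.84 (standard error 0.16, edgeR adjusted p = 0.0058). *Csf1r* rose by 0.77 on the log2 scale (standard error 0.14, edgeR adjusted p = 0.00391), from 148, 177 and 215 CPM in WT to 288, 304 and 328 CPM in Gpr174-/Y. Among the general macrophage genes, *Csf1r* thus had the smallest fold change and *Cd68* the largest.

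**Figure D2:**
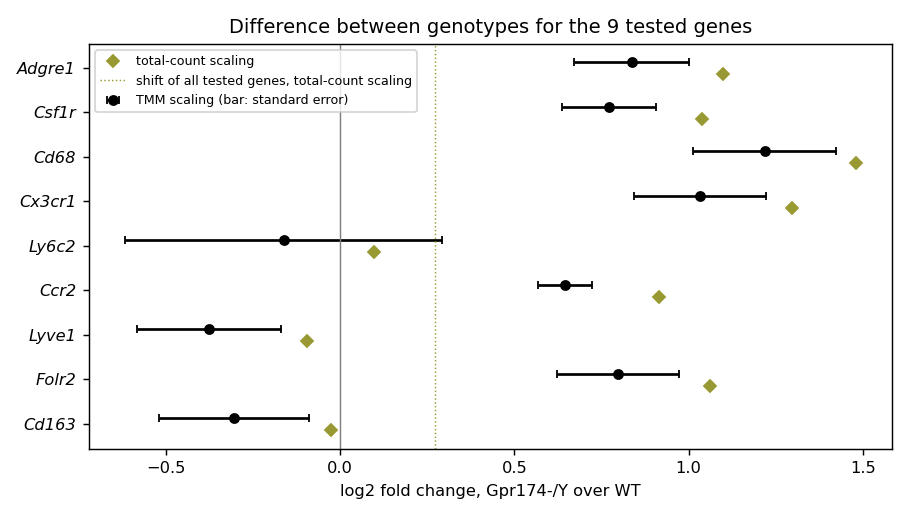
Log2 fold change of Gpr174-/Y over WT (horizontal axis) for the 9 tested genes, with black points and standard error bars for TMM scaling, diamonds for total-count scaling and a dotted line at the shift of all tested genes, 0.27. *Cd68* lies furthest right at 1.22, and the bar of *Ly6c2*, with a standard error of 0.45, is the widest.

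The 2 monocyte genes gave different results. *Ccr2*, the receptor for the chemokines CCL2, CCL7 and CCL12, had 20.7, 22.4 and 24.3 CPM in WT and 32.8, 36.1 and 36.6 CPM in Gpr174-/Y. Its libraries spread little within either group and the groups were apart. The log2 fold change of 0.64 had the smallest standard error of the members (0.08) and the lowest adjusted p (edgeR, 0.00128). *Ly6c2*, which encodes a form of LY6C, had 1.80, 3.87 and 7.98 CPM in WT and 3.49, 4.47 and 4.37 CPM in Gpr174-/Y. The WT libraries spread 4.42-fold and enclosed the Gpr174-/Y libraries. The log2 fold change was -0.16 (standard error 0.45, edgeR adjusted p = 0.783), and its sign depended on 1 library and on the scaling. It was 0.53 without WT replicate 3, which held the highest value, 0.10 with total-count scaling, and 0.42 with limma on log2(TPM + 1). At this spread, no difference in *Ly6c2* was detected, and a small one could have been missed.

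*Ly6c1*, the near copy, had 1397, 1574 and 1797 counts in WT and 994, 972 and 967 in Gpr174-/Y, beside 29, 65 and 142 counts of *Ly6c2* in WT and 73, 95 and 94 in Gpr174-/Y. *Ly6c1* fell by 1.03 on the log2 scale (standard error 0.07, edgeR adjusted p = 0.000415), and with the counts of both copies summed the log2 fold change was -0.97 (edgeR adjusted p = 0.000626). The summed value follows *Ly6c1*, which held most of the counts. The blood endothelium list, of which *Ly6c1* is 1 gene, was lower in 8 of 8 cases with either scaling. Of all tested genes, 27.6% were lower with TMM and 14.0% with total-count scaling. The summed level of the list was 1020 to 1193 CPM in WT and 613 to 696 CPM in Gpr174-/Y. The part of endothelial reads in the values of *Ly6c2* was not tested.

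The resident macrophage genes did not move together. *Folr2*, a folate receptor of macrophages, had 16.9, 22.8 and 29.4 CPM in WT and 41.1, 39.8 and 39.6 CPM in Gpr174-/Y. The groups were apart, and the log2 fold change was 0.80 (standard error 0.17, edgeR adjusted p = 0.00846). *Lyve1*, a hyaluronan receptor, had 7.84, 7.56 and 4.66 CPM in WT and 4.68, 4.95 and 5.77 CPM in Gpr174-/Y. WT replicate 3 was below all Gpr174-/Y libraries, while WT replicates 1 and 2 were above all of them. The log2 fold change of *Lyve1* was -0.38 (standard error 0.21, edgeR adjusted p = 0.162). Without WT replicate 3 it was -0.58, with an adjusted p of 0.00362, so that the call rested on this library. On the log2(TPM + 1) scale the value was 0.03. *Cd163*, the scavenger receptor for complexes of hemoglobin and haptoglobin, had 8.59, 7.32 and 5.51 CPM in WT and 4.64, 5.42 and 7.21 CPM in Gpr174-/Y, and the groups overlapped. Its log2 fold change was -0.31 (standard error 0.22, edgeR adjusted p = 0.265), and on the log2(TPM + 1) scale it was 0.07. Without WT replicate 3 the log2 fold change of *Cd163* was -0.46, still not called (edgeR adjusted p = 0.0668).

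*Timd4*, a receptor for phosphatidylserine on dying cells, had 4, 3 and 1 counts in WT and 2, 3 and 2 in Gpr174-/Y. Most of these values were at or under the 3 counts taken as detectable, the filter removed the gene, and no fold change is given. *Lyve1* is also expressed by lymphatic endothelium, whose list of 6 genes had 2 higher and 1 lower and a summed level of 78.4 to 87.4 CPM in WT and 90.3 to 103 CPM in Gpr174-/Y. In it, *Prox1* (log2 fold change 0.28) and *Pdpn* (0.69) were higher and *Flt4* (-0.43) was lower, the last not with total-count scaling. Without *Pdpn* the list summed to 40.6 to 56.8 CPM in WT and 35.4 to 45.0 CPM in Gpr174-/Y, and the groups overlapped. The part of lymphatic vessels in the values of *Lyve1* was not tested.

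Levels scaled for length gave the order of the genes within each group. In WT, *Cd68* was highest at 193 ± 68.2 TPM (SD, n = 3), followed by *Csf1r* at 80.8 ± 19.1 TPM and *Adgre1* at 42.0 ± 12.8 TPM. *Adgre1* and *Folr2*, with 38.5 ± 12.2 TPM, overlapped. *Ccr2* (10.8 ± 1.46 TPM), *Cx3cr1* (10.6 ± 3.73 TPM) and *Ly6c2* (10.2 ± 7.38 TPM) were not apart from one another, nor was *Ly6c2* from *Lyve1* (4.43 ± 0.999 TPM) or *Lyve1* from *Cd163* (2.85 ± 0.519 TPM). *Timd4* was lowest at 0.177 ± 0.11 TPM, below all the other genes.

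In Gpr174-/Y the order was the same at the top, with *Cd68* at 584 ± 37.0 TPM (SD, n = 3), *Csf1r* at 180.0 ± 17.99 TPM, *Adgre1* at 96.5 ± 5.03 TPM and *Folr2* at 87.2 ± 1.57 TPM, each apart from the next. *Cx3cr1* (28.7 ± 1.05 TPM) stood above *Ccr2* (22.1 ± 1.94 TPM), and *Ccr2* above *Ly6c2* (11.9 ± 1.76 TPM), without overlap. *Lyve1* (4.50 ± 0.652 TPM) and *Cd163* (3.08 ± 0.834 TPM) again overlapped. The SD between Gpr174-/Y libraries was smaller than that between WT libraries for each gene except *Ccr2* and *Cd163*.

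Ratios within a library do not depend on the scaling between libraries, and they are given without a test because they combine members. Relative to *Csf1r* TPM in the same library, *Cd68* was 204%, 238% and 262% in WT and 334%, 330% and 311% in Gpr174-/Y. *Cd68* was thus higher in Gpr174-/Y against *Csf1r* itself. *Lyve1* was 7.93%, 6.41% and 3.25% of *Csf1r* in WT and 2.43%, 2.43% and 2.63% in Gpr174-/Y. *Cd163* was 5.28%, 3.74% and 2.28% in WT and 1.45%, 1.62% and 2.01% in Gpr174-/Y. For both genes each Gpr174-/Y library lay below each WT library, with WT replicate 3 nearest to them. On the TPM scale *Csf1r* was 2.23-fold, *Lyve1* 1.02-fold and *Cd163* 1.08-fold in Gpr174-/Y over WT. A gene with an unchanged TPM would on average also have a lower ratio to *Csf1r*. The share of all genes with ratios apart in this way was not counted.

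*Folr2* was 42.5%, 47.9% and 50.7% of *Csf1r* in WT and 52.9%, 48.5% and 44.7% in Gpr174-/Y, so the groups overlapped. The ratios of *Adgre1*, *Cx3cr1*, *Ccr2* and *Ly6c2* to *Csf1r* overlapped as well. *Csf1r* relative to *Ptprc*, which encodes the leukocyte protein CD45, was 481%, 455% and 426% in WT and 459%, 472% and 435% in Gpr174-/Y. *Ptprc* itself was 0.76 higher on the log2 scale (standard error 0.17, edgeR adjusted p = 0.0101). Against *Ptprc*, *Lyve1* and *Cd163* were lower and *Cd68* higher in every Gpr174-/Y library than in every WT library. *Ptprc* was higher in Gpr174-/Y as *Csf1r* was, and their ratio overlapped between the groups. Ratios to *Ptprc* are therefore not a check separate from those to *Csf1r*. A gene with an unchanged TPM would on average have a lower ratio to *Ptprc* as well. How many of all genes had ratios to *Ptprc* apart in this way was not counted. The ratio of *Folr2* to *Lyve1*, both genes of the resident group, was 536%, 747% and 1561% in WT and 2175%, 1999% and 1701% in Gpr174-/Y.

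**Figure D3:**
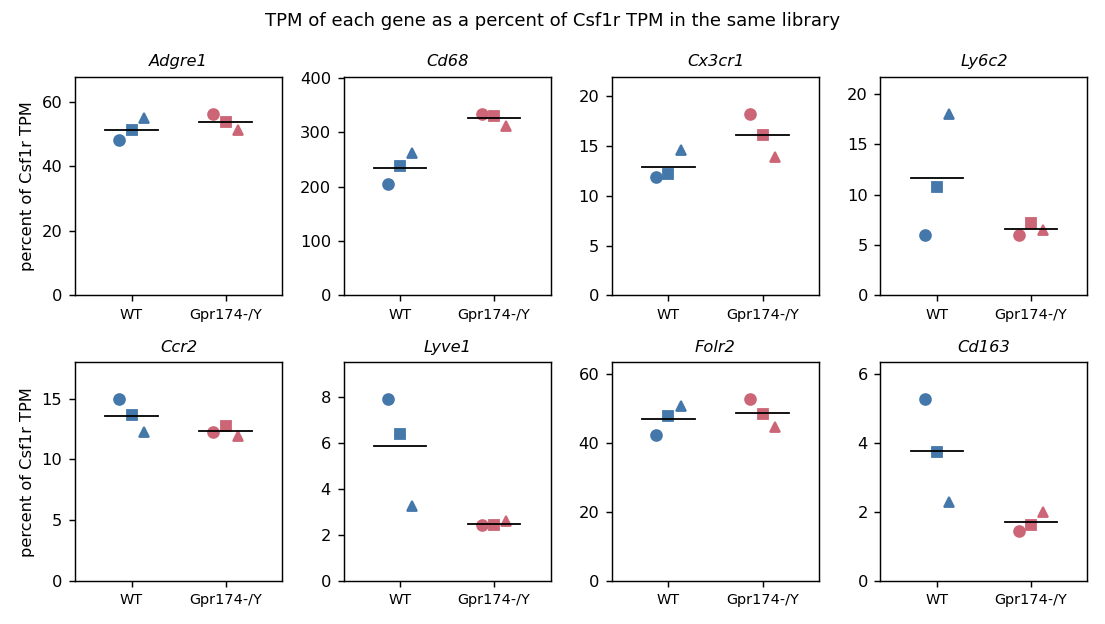
TPM of 8 genes as a percent of *Csf1r* TPM in the same library (vertical axes, each from 0), with 1 symbol for each replicate number, WT in blue, Gpr174-/Y in red and a line at the group mean. *Cd68* is above WT in all Gpr174-/Y libraries, *Lyve1* and *Cd163* are below, and the other 5 genes overlap.

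Further genes of each role came from lists written with results of these data known, and they are described by their counts beside the shares of all tested genes. These shares were 27.0% higher and 27.6% lower with TMM, and 50.7% and 14.0% with total-count scaling. Of 20 further general macrophage genes, 18 were called higher and 0 lower, with a median log2 fold change of 0.87. *Fcgr1* (0.78, edgeR adjusted p = 0.0817) and *Aif1* (0.71, edgeR adjusted p = 0.0536) were not called, and both were called by DESeq2's Wald test. The highest were *Msr1* (1.64), a scavenger receptor, *Itgam* (1.596), the integrin CD11b, and *Trem2* (1.08), a lipid receptor of macrophages. All 3 passed a log2 fold change of 1. Of 12 further monocyte genes tested, 9 were higher and 0 lower, with a median of 0.88. *Thbs1* (1.33), *Ccl9* (1.17) and *S100a4* (1.04) had the largest increases among those above the mean level of 1 CPM. Like *Ccr2* and unlike *Ly6c2*, most genes of this list were therefore called.

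Of 10 tested genes of patrolling monocytes, which crawl along vessels, 5 were higher and 3 lower, with a median log2 fold change of 0.41. The share called lower was near the 27.6% of all tested genes. *Spn* (0.82), *Cd300ld* (0.77), *Adgre4* (0.77), *Pou2f2* (0.46) and *Itgal* (0.36) were higher, while *Nr4a1* (-1.12), the transcription factor on which these monocytes depend, *Ace* (-0.94) and *Cd36* (-0.38) were lower. *Ace* and *Cd36* are also expressed in endothelium, and the call of *Cd36* was lost with total-count scaling. *Nr4a1* spread 2.21-fold between WT libraries and its groups overlapped in TPM. Which cells of the whole muscle gave its RNA was not tested. Of 16 further resident macrophage genes tested, 5 were higher and 2 lower, with a median of 0.10. *Pf4* (1.38), a chemokine, *Stab1* (0.87), a scavenger receptor, and *Mrc1* (0.54), the mannose receptor CD206, were higher, as were *Selenop* (0.37) and *Igf1* (0.27). *Cbr2* (-0.58), a carbonyl reductase, and *Maf* (-0.46) were lower, *Maf* not with total-count scaling. The filter removed 4 genes of this list, *Vsig4*, *Cd209b*, *Cd209d* and *Cd209g*, which had at most 13 counts in any library. The share called higher was near the 27.0% of all tested genes and the share called lower was under their 27.6%. With total-count scaling, 8 were higher and 1 was lower.

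The ligands and partners of the members were mostly higher, with 16 of 21 tested genes called higher, 1 lower and a median log2 fold change of 0.60. The shares of all tested genes were 27.0% higher and 27.6% lower. *Csf1*, a ligand of CSF1R, had 31.8, 35.7 and 44.3 CPM in WT and 56.3, 55.8 and 57.5 CPM in Gpr174-/Y, a log2 fold change of 0.60 (standard error 0.11, edgeR adjusted p = 0.00512). *Il34*, the other ligand, had 8.63 to 9.58 CPM in WT and 6.98 to 9.56 CPM in Gpr174-/Y and was not called (edgeR adjusted p = 0.391). *Csf1* thus differed between genotypes in the direction of its receptor, and the *Il34* groups overlapped.

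Among the ligands of CCR2, *Ccl2* had 1.56, 2.74 and 5.17 CPM in WT and 17.01, 15.6 and 14.3 CPM in Gpr174-/Y. Its log2 fold change of 2.29 (standard error 0.32, edgeR adjusted p = 0.0019) was larger than that of any member. *Ccl7* rose from 21, 56 and 120 counts to 244, 235 and 215 counts, a log2 fold change of 1.502 (standard error 0.43, edgeR adjusted p = 0.022). The groups of *Ccl12* overlapped, at 1.62 to 7.19 CPM in WT and 4.87 to 8.23 CPM in Gpr174-/Y (edgeR adjusted p = 0.31). *Cx3cl1*, the ligand of CX3CR1, had 15.1, 19.2 and 25.5 CPM in WT and 31.4, 28.6 and 24.3 CPM in Gpr174-/Y, and it was not called (edgeR adjusted p = 0.0611). With DESeq2's Wald test the adjusted p of *Cx3cl1* was 0.0397 and with total-count scaling it was 0.0168, so this call depends on the method. The call of *Ccl7* was lost when any Gpr174-/Y library or WT replicate 2 was left out, with an adjusted p of up to 0.0824.

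The hyaluronan synthases, which make the ligand of LYVE1, differed among themselves. *Has2* (log2 fold change 1.45) and *Has1* (0.59) were higher and *Has3* (-1.41) was lower, each with groups that did not overlap. *Has3* had 6.10, 4.58 and 3.20 CPM in WT and 1.86, 1.65 and 1.68 CPM in Gpr174-/Y. *Hp*, haptoglobin, which CD163 takes up with hemoglobin, was higher by 1.33, with 26.3 to 31.5 CPM in WT and 59.3 to 89.3 CPM in Gpr174-/Y. *Hmox1*, the enzyme that breaks down heme, was higher by 1.09, while *Cd163* was not called.

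Of the genes that act on apoptotic cells beside TIMD4, *Havcr2* (1.28), *Tyro3* (0.58) and *Mfge8* (0.25) were higher. *Axl* (0.15, edgeR adjusted p = 0.276) was not called with TMM, but was called with total-count scaling and without WT replicate 3 (0.27, adjusted p = 0.00784). *Havcr1* had 1 count in 1 library and 0 in the other 5. *Adam10* (0.37) and *Adam17* (0.41), proteases that shed surface receptors, were slightly higher. *Folr1* (1.48), the other folate receptor, and *Csf2ra* (0.98) and *Csf2rb* (1.13), the receptor chains for GM-CSF, were higher, while *Csf2*, its ligand, had at most 2 counts in any library.

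Transcription factors of macrophages showed both directions, with 9 of 16 tested genes higher, 4 lower and a median log2 fold change of 0.43. Of all tested genes, 27.0% were higher and 27.6% lower. *Spi1* (0.89), which encodes PU.1, was higher. *Tfec* (1.33), *Runx1* (1.30), *Cebpa* (0.71), *Zeb2* (0.68), *Spic* (0.62), *Irf8* (0.54) and *Nr1h3* (0.23) were higher too. *Klf4* (-0.97), *Klf2* (-0.92), *Cebpb* (-0.49) and *Maf* (-0.46) were lower, and the first 2 are also abundant in endothelium. The lower calls of *Cebpb* and *Maf* were lost with total-count scaling, and the higher calls of *Spic* and *Nr1h3* with DESeq2's Wald test.

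**Figure D4:**
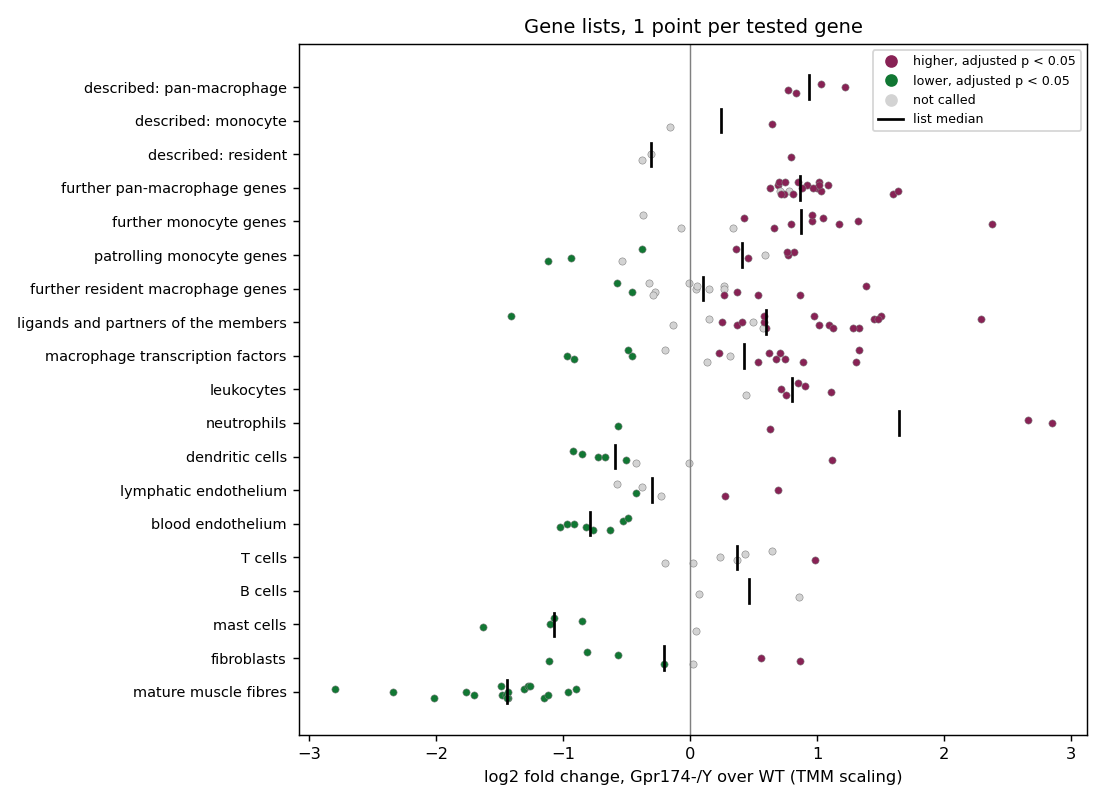
Log2 fold change of Gpr174-/Y over WT (horizontal axis, TMM scaling), with 1 point for each tested gene of each list, purple for higher and green for lower calls, grey for genes not called and a black line at the list median. The general macrophage and further monocyte lists lie to the right with medians of 0.93, 0.87 and 0.88, the resident lists have medians of -0.31 and 0.10, and the lists of mature fibres and blood endothelium lie to the left at -1.44 and -0.79.

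The genes of other cells moved with genotype as well, and their part in the values of the members was not tested. Beside each list of other cells stand the shares of all tested genes, 27.0% higher and 27.6% lower. The 6 pan-leukocyte genes had 5 higher and 0 lower, with *Itgb2* at 1.11, *Cd53* at 0.91, *Laptm5* at 0.85, *Ptprc* at 0.76 and *Coro1a* at 0.71. Their summed level was 320 to 542 CPM in WT and 720 to 808 CPM in Gpr174-/Y. Of 10 neutrophil genes, 6 were removed by the filter, and *Ly6g*, which defines these cells, was at 0 in 5 of 6 libraries with 1 count in the other. *S100a8* and *S100a9* had at most 15 counts in any library. Of the other 4, *Mmp8* (2.85), *Mmp9* (2.66) and *Csf3r* (0.63) were higher, and *Cxcr2* (-0.57) was lower, not with total-count scaling. The mean level of *Mmp8* was only 0.667 CPM. The summed level of the list was 24.9 to 52.7 CPM in WT and 115 to 118 CPM in Gpr174-/Y. Without *Mmp9*, which held 67.8% to 71.5% of the sum in Gpr174-/Y, it was 22.4 to 29.1 CPM in WT and 33.6 to 36.9 CPM in Gpr174-/Y. Most of this remainder was *Csf3r*, with 14.9 to 23.7 CPM in WT and 27.8 to 30.4 CPM in Gpr174-/Y.

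Dendritic cell genes went mainly the other way, with 1 of 8 higher and 5 lower. *Cd209a* (-0.92), *Clec9a* (-0.85), *Xcr1* (-0.73), *Siglech* (-0.67) and *Zbtb46* (-0.50) were lower and *Itgax* (1.12), which macrophages also express, was higher. With total-count scaling, *Clec9a* was the 1 gene still lower. With TMM, the summed level was 52.7 to 60.4 CPM in WT and 70.6 to 82.3 CPM in Gpr174-/Y, and *Itgax* made this difference. The other 7 genes summed to 31.4 to 32.9 CPM in WT and 19.9 to 24.5 CPM in Gpr174-/Y. Mast cell genes had 4 of 5 lower, *Cpa3* (-1.63), *Mcpt4* (-1.11), *Tpsb2* (-1.07) and *Cma1* (-0.85), and a summed level of 35.8 to 55.2 CPM in WT and 33.3 to 36.7 CPM in Gpr174-/Y. *Kit*, not called with TMM but higher with total-count scaling, held 45.4% to 73.4% of this sum. T cell genes had 1 of 7 higher, *Cd5* (0.98), and a summed level of 13.5 to 25.2 CPM in WT and 24.5 to 27.3 CPM in Gpr174-/Y. *Cd4*, not called, held 69.6% to 77.9% of this sum, and *Cd5* had a mean of 0.764 CPM. Neither of the 2 tested B cell genes was called, and that list summed to 2.01 to 2.91 CPM in WT and 3.03 to 3.55 CPM in Gpr174-/Y.

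Of 8 blood endothelium genes, *Ly6c1* (-1.03), *Cldn5* (-0.97) and *Kdr* (-0.91) had the largest decreases. Fibroblast genes were split, with *Col1a1* (0.87) and *Col3a1* (0.56) higher and *Pi16* (-1.12), *Lum* (-0.81), *Dcn* (-0.57) and *Pdgfra* (-0.21) lower, the last not with total-count scaling. The fibroblast list summed to 11990 to 16890 CPM in WT and 20790 to 23800 CPM in Gpr174-/Y, most of it from *Col1a1* and *Col3a1*. The other 5 genes summed to 1360 to 1396 CPM in WT and 933 to 999.9 CPM in Gpr174-/Y, the opposite direction.

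Genes of mature muscle fibres were lower in 18 of 18 cases, with a median log2 fold change of -1.44. *Myh2* (-2.80), a myosin heavy chain, *Pvalb* (-2.34), parvalbumin, and *Mb* (-2.02), myoglobin, had the largest decreases. The 18 genes held 18.2%, 16.5% and 13.8% of all counts in WT and 7.87%, 7.68% and 7.38% in Gpr174-/Y. The share of the general macrophage members was 0.0277%, 0.0363% and 0.0491% in WT and 0.0831%, 0.0875% and 0.0928% in Gpr174-/Y. The shares are parts of 1 total and do not vary independently, and the part of fibre transcripts in the values of the members was not tested. Within WT, replicate 3 had the lowest share of fibre counts and the highest share of general macrophage counts. In WT, replicate 2 lay between replicates 1 and 3 in 86.0% of abundant genes, so such an order was common.

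**Figure D5:**
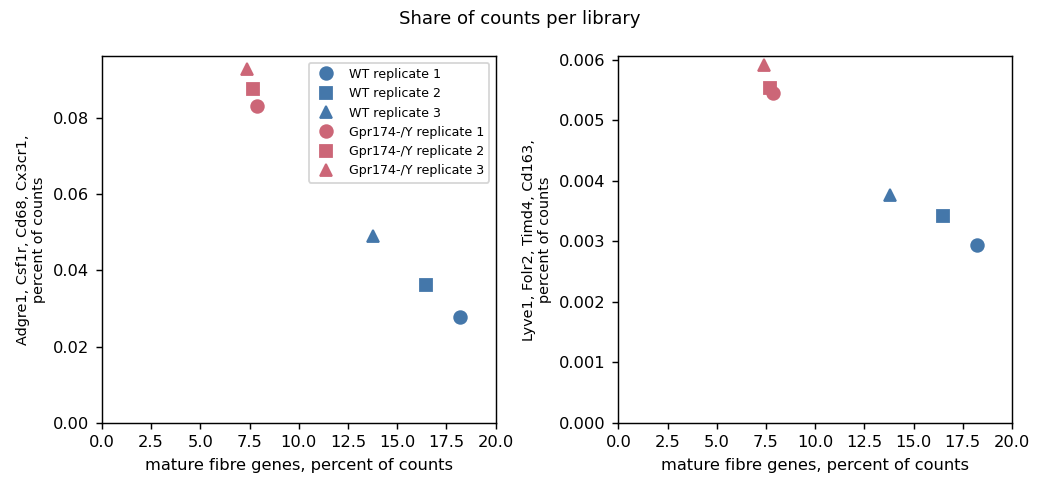
Percent of each library's counts in the 18 mature fibre genes (horizontal axes) against the percent in the general macrophage genes (left) and in the resident macrophage genes (right), of which *Folr2* was the largest part, with WT in blue and Gpr174-/Y in red. Fibre shares were 13.8% to 18.2% in WT and 7.38% to 7.87% in Gpr174-/Y, and both macrophage shares were highest where the fibre share was lowest. *Folr2* held 50.4% to 81.3% of the summed CPM of the resident genes. Between WT replicate 1 (highest fibre share) and Gpr174-/Y replicate 3 (lowest), *Folr2* went from 272 to 851 counts. *Lyve1* went from 126 to 124 counts and *Cd163* from 138 to 155. These counts are not scaled by TMM. On the TMM scale *Lyve1* went from 7.84 to 5.77 CPM and *Cd163* from 8.59 to 7.21 CPM between the same libraries.

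The genes with the most similar profile over the 6 libraries were taken by the distance between centred log2 CPM values, over 13617 genes. Those nearest to *Csf1r* were *Pfkl*, *Slc11a1*, *Fcgr3*, *Fcgr2b* and *Tifab*, with distances of 0.0555 to 0.0836. Among the 5 nearest to *Ccr2* were *Man2b1*, *Purb*, *Smarcc1* and *Map1b*, at 0.0609 to 0.0856. Those nearest to *Folr2* were *Slc25a24*, *Abracl*, *Dbn1*, *Tes* and *Nnmt*, at 0.0550 to 0.0860. The member nearest to *Csf1r* was *Adgre1*, at 0.194, and the member nearest to *Folr2* was also *Adgre1*, at 0.109. *Lyve1* (1.69) and *Cd163* (1.62) were farther from *Csf1r* than the other members were. These distances rest on 6 libraries in 2 groups, and are a description.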

How the data were processed

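RNA of 3 WT and 3 Gpr174-/Y ischemic muscles was sequenced on the BGISEQ-500 platform named in the methods, while the labels name an Illumina library kit. The authors deposited expected counts, which are estimated reads for each of 58843 RefSeq transcripts, without normalization. The authors also deposited FPKM and TPM, both scaled for transcript length. Per the labels, the submitters' processing notes name HISAT2 2.0.4, Bowtie2 2.2.5, RSEM 1.2.12 and GRCm39 without their roles, and the use of strand is not given in the sources used here. Group means in the deposited table were not used, and neither was FPKM.

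Expected counts were summed by Entrez gene and rounded, and TPM was summed by gene. Genes were tested with edgeR 4.0.16 in R 4.3.3 (TMM, filterByExpr, robust quasi-likelihood F-test, 2-sided), with Benjamini-Hochberg adjustment. Standard errors were derived from the F statistic. The study's own test has no term for the spread between mice, so its thresholds (adjusted p of 0.05, log2 fold change of 1) were kept and its test was not. The tests were checked on simulated data. Gene symbols came from NCBI identifiers, and sequences from GENCODE M21 and RefSeq on GRCm38, since the files' build was not at hand. A level of 3 counts was taken as detectable, which covers counting error only.

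The members, lists and tests were chosen with earlier results of these data known. All members were named, with the called ligands, partners and transcription factors, except a few items that are not reported here. In other lists the 3 largest called increases and decreases with a mean of at least 1 CPM were named, and for *Csf1r*, *Ccr2* and *Folr2* the 5 genes nearest in profile. *Gpr174*, *Ptprc* and *Ly6c1* were named as checks. *Il34*, *Cx3cl1*, *Ccl12* and *Csf2* were named as ligands, and genes removed by the filter as low markers. *Mmp8*, *Fcgr1*, *Aif1*, *Axl*, *Kit*, *Cd4* and the remaining called genes of short counts were named after their values were seen. Alternatives were size factors from DESeq2 1.42.0, the Wald test of DESeq2, total-count scaling, keeping all genes, requiring 10 counts in each library, a replicate block, each library left out, replicates 1 and 3 alone, limma 3.58.1 on log2(TPM + 1) and log2(TPM + 0.1), and *Ly6c1* and *Ly6c2* summed.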

Additional observations from a re-analysis of the deposited data

How the results depend on the processing

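The 6 higher calls among the members were made with every alternative except replicates 1 and 3 alone. With replicates 1 and 3 alone, edgeR called 0 members, 0 higher and 0 of all genes, the members' adjusted p ran from 0.0572 (*Ccr2*) to 0.104 (*Folr2*), and the lowest of all genes was 0.0542. Leaving out each library in turn gave 6 to 7 members called, 6 to 6 higher and 0 to 1 lower, with 5457 to 9165 genes called in all. The 1 lower call was *Lyve1* without WT replicate 3 (log2 fold change -0.58, adjusted p = 0.00362). The log2 fold change of *Ly6c2* became 0.49 on log2(TPM + 0.1), 0.42 on log2(TPM + 1) and 0.10 with total-count scaling, and ran from -0.53 to 0.53 when each library was left out, as did that of *Kit* from -0.0145 to 0.114. Values on log2(TPM + 0.1) and log2(TPM + 1) also turned positive for *Lyve1* (0.039 and 0.030), *Cd163* (0.092 and 0.073), *Cd36* (0.0181 and 0.018), *Il34* (0.24 and 0.22) and *Pdgfra* (0.19 and 0.18), and with total-count scaling for *Il34* (0.14) and *Pdgfra* (0.069). TPM has no correction for the composition of a library, and the cause of these reversals was not tested. The same-numbered libraries were not paired, since the correlations of their deviations were 0.0163, -0.0281 and -0.00839. A replicate block gave 6 members called and 6812 genes in all, against 7863 without it. The block ended the calls of 9 other named genes, *Maf*, *Spic*, *Cxcr2*, *Cd209a*, *Prox1*, *Mcpt4*, *Col3a1*, *Cma1* and *Siglech*. Of 85 other named genes called, 85 lost their call with replicates 1 and 3 alone. Leaving out 1 library or another ended the calls of 23 of them, with adjusted p-values of 0.0508 to 0.145, among them *Ccl7*, *Cd209a*, *Cd300ld*, *Cd5*, *Cma1*, *Col3a1*, *Csf3r*, *Cxcr2*, *Irf8*, *Itgal*, *Maf*, *Mcpt4*, *Mfge8*, *Nr1h3*, *Nr4a1*, *Pdgfra*, *Pou2f2*, *Prox1*, *Siglech*, *Spic*, *Spn* and *Tpsb2*. The 4.42-fold spread of *Ly6c2* between WT libraries limits what can be seen, and the counts of *Timd4* were too low to compare.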
